A study of Mus musculus with 4 samples.

Results

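Lrtm1 encodes a membrane protein with leucine-rich repeats (LRRs), and the 10 genes described here are Lrtm1 and 9 genes for related LRR membrane proteins, out of 19938 genes named on the array. The relatives are Lrtm2, Lrrtm1, Lrrtm2, Lrrtm3, Lrrtm4, Lrrn1, Lrrn2, Lrrn3 and Lingo1. Members were chosen by gene symbol, and each had 1 probe set (transcript cluster) paired with its symbol alone. Lrtm1 itself had been selected on its higher signal in the CORIN+ populations of these same arrays, so its difference is given as a description, and it supports nothing. The question was whether its relatives shared that pattern.
Transcripts of 4 sorted populations were measured, on 1 array each. CORIN+LMX1A::GFP+ cells and CORIN-LMX1A::GFP+ cells were sorted on day 9 of neural differentiation from mouse embryonic stem cells (ESCs) of a 129SVEV line with GFP knocked into the Lmx1a locus, cultured as floating aggregates with SHH and FGF8b, and are called cultured CORIN+ and cultured CORIN- cells here. CORIN+ and CORIN- cells were sorted from the ventral midbrain (VM) of C57BL/6N fetuses at E11.5, without selection for LMX1A, so both the strain and the gate differ between culture and fetus. CORIN, a protease, marks the surface of floor plate cells, the ventral midline cells that give rise to midbrain dopaminergic progenitors.

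LRRs are short repeats that stack into a curved surface for protein binding, and neural membrane proteins that carry them outside the cell guide axons and join synapses. LRTM1 and LRTM2 are small single-pass proteins of which little is known. LRRTM proteins sit on the postsynaptic side of excitatory synapses, where they bind neurexins, and LRRTM4 also binds heparan sulfate proteoglycans such as glypicans. LRRN proteins add immunoglobulin and fibronectin domains to their LRRs, and LRRN1 has been tied to the midbrain-hindbrain boundary in chick. LINGO1 works with the Nogo receptor and with the neurotrophin receptor p75 to hold back axon growth and myelination.

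Lrtm1 was more than 2-fold higher in the CORIN+ population of both systems, and none of its 9 relatives was in either system. Only 0.353% of all clusters were at least 2-fold higher in culture and 2.67% in the fetus. None among 9 relatives is thus near the share of all clusters. The log2 signal of Lrtm1 was 11.97 in cultured CORIN+ cells and 10.63 in cultured CORIN- cells, and, in the fetus, 10.75 in CORIN+ and 9.65 in CORIN- cells. The ESC-derived CORIN+ population was thus the highest, the fetal CORIN- population the lowest, and the other two differed by little. The log2 fold (CORIN+ minus CORIN-) was 1.34 in culture and 1.10 in the fetal VM. Ranked by the smaller of both folds, Lrtm1 stood at rank 13 of 28856 clusters. Of all clusters, 0.0624% were at least 2-fold higher in both comparisons. The last ones inside that limit included Anxa2 (smaller log2 fold 1.01), and the first one outside was Slc1a3 (0.999). With 1 array per population no difference here has a replicate check, an error or a p-value, and no neighbouring levels of a gene can be said to differ beyond their spread. A fold can also come from a different number of cells of a type or from a different RNA content per cell, which a bulk array cannot tell apart.

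**Figure D1:**
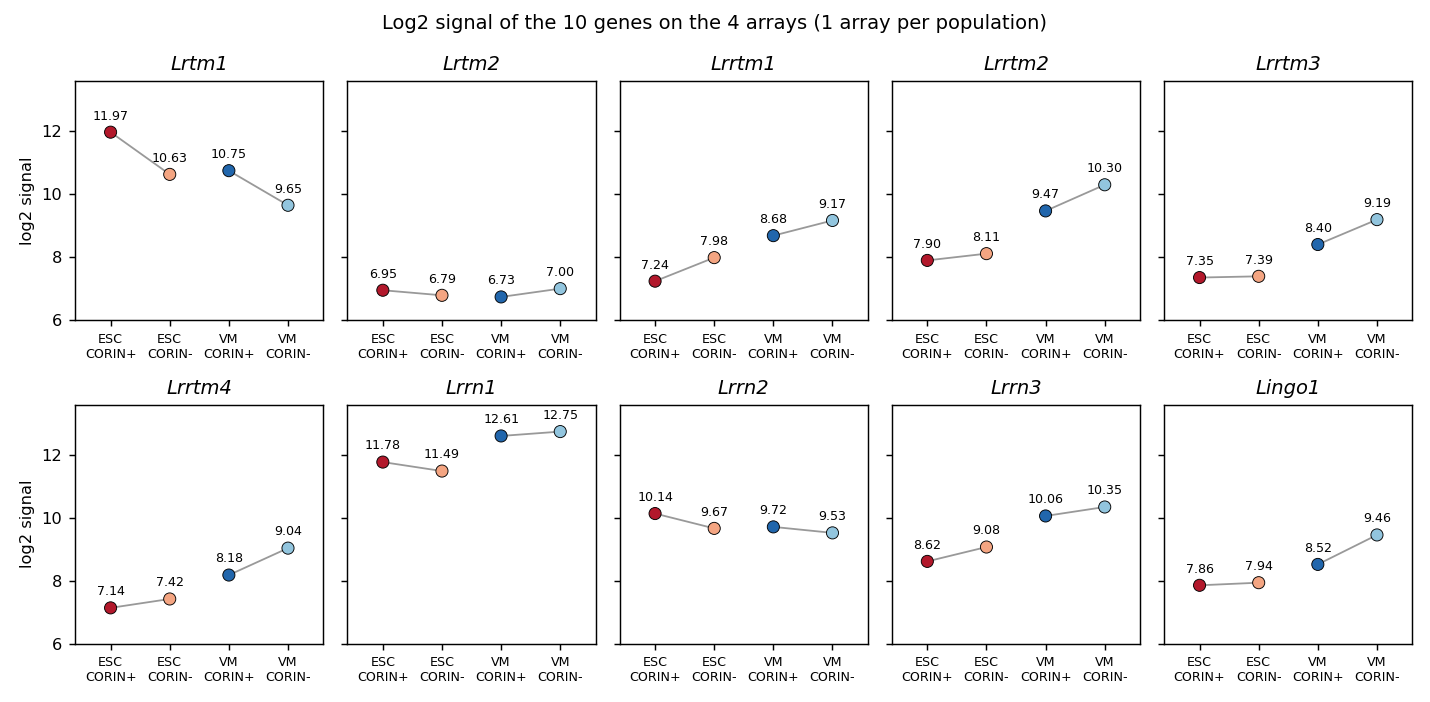
Log2 signal (vertical axis) of each of the 10 genes in the 4 sorted populations (horizontal axis), 1 array each, with a line joining the arrays of 1 comparison. Lrtm1 is higher in the CORIN+ array of both pairs, while Lrrtm1, Lrrtm2, Lrrtm3, Lrrtm4, Lrrn3 and Lingo1 are lowest in the ESC-derived CORIN+ array and highest in the fetal CORIN- array. Levels are to be read within a gene and not between genes.

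The sequence upstream of Lrtm1 is shown with those of Lrtm2, its closest namesake, and Lrrn2, the relative with the smallest difference from it over the 4 arrays. They are the 250 bases before the annotated starts, 5′ to 3′ on the strand of the gene, from RefSeq (build GRCm38.p6), with motif matches in capitals. The Lrtm1 window is at chr14:29017958-29018207 (plus strand), that of the outer of 2 Lrtm2 starts is at chr6:119330767-119331016 (minus strand), and that of Lrrn2 is at chr1:132880105-132880354 (plus strand).
Lrtm1: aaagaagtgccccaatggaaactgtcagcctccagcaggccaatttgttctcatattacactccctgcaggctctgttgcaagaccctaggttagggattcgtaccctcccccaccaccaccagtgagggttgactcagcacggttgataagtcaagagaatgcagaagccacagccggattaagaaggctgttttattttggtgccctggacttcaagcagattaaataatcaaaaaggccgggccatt
Lrtm2: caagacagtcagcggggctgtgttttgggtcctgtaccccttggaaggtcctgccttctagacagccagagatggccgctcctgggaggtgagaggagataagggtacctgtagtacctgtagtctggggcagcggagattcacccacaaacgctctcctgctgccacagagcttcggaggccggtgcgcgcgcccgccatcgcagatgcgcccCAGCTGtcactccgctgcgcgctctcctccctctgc
Lrrn2: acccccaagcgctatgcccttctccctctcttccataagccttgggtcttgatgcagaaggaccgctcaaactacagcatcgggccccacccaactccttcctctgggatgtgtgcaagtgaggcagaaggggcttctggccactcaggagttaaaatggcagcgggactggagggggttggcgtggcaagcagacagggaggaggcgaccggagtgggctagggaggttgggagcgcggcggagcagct
These 6 motifs were searched on both strands: a forkhead motif TGTTTNC, a homeodomain motif TAATTA, a GLI motif TGGGTGGTC, an E-box CAGCTG, a GC box GGGCGG and a SOX motif ACAATNG. The Lrtm1 window held none of these letters, and neither did that of Lrrn2. The capitals in Lrtm2 are an E-box, and the window of its inner start, not shown, held 2 E-boxes and 1 GC box. Among all 32851 windows of this length the E-box was found in 13%, the GC box in 32.7%, the forkhead motif in 17.8%, the SOX motif in 6.91%, the homeodomain motif in 4.84% and the GLI motif in 0.225%. Of the members, 8 matched the table, with 11 windows, and Lrrtm2 and Lrrn3 did not. The other matches among the members were E-boxes in Lrrtm4 and Lingo1 and GC boxes in Lrrn1 and Lingo1. GC content was 49.2% for Lrtm1, against 63.2% and 62.4% for the outer and inner start of Lrtm2 and 61.6% for Lrrn2, and the median over all windows was 52.4%. The highest values in the set were those of Lingo1, 72.8% and 70.4%, and the lowest was that of Lrrtm1 (42%).

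Lrtm2, the closest namesake, did not follow Lrtm1. Its log2 signal was 6.95 in cultured CORIN+ and 6.79 in cultured CORIN- cells, and, in the fetus, 6.73 in CORIN+ and 7.0 in CORIN- cells. The 4 values lay close together, and the CORIN+ signal was the higher one in culture and the lower one in the fetus, with log2 folds of 0.16 and -0.26. Whether the transcript was present was not measured, since detection calls were not used here.

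The LRRTM genes did not share the pattern of Lrtm1, and in the fetus all 4 had a lower CORIN+ signal. Lrrtm1 had a log2 signal of 7.24 in cultured CORIN+ and 7.98 in cultured CORIN- cells, and in the fetal VM 8.68 in CORIN+ and 9.17 in CORIN- cells. It had the lowest fold of the set in the ESC-derived pair, at 1.68-fold lower, with 1.07% of all clusters below it, and was 1.40-fold lower in the fetal pair. Lrrtm2 had log2 signals of 7.90 in cultured CORIN+, 8.11 in cultured CORIN-, 9.47 in fetal CORIN+ and 10.30 in fetal CORIN- cells. The fetal difference of 1.78-fold lower was the larger one, beside 1.16-fold lower in culture. Lrrtm3 had a log2 signal of 7.35 and 7.39 in the CORIN+ and CORIN- cells from culture, and of 8.40 and 9.19 in those from the fetus. It was thus nearly level in culture, with a log2 fold of -0.04, and 1.73-fold lower in fetal CORIN+ cells. Lrrtm4, the fourth of the family, had log2 signals of 7.14 in cultured CORIN+, 7.42 in cultured CORIN-, 8.18 in fetal CORIN+ and 9.04 in fetal CORIN- cells. Its log2 folds were -0.28 in culture and -0.86 in the fetus. In culture Lrrtm1, Lrrtm2 and Lrrtm4 were lower in CORIN+ cells, each by a log2 fold beyond 0.146, the scaled median absolute deviation over all clusters, and Lrrtm3 was not.

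The LRRN genes were mixed. Lrrn1 had log2 signals of 11.78 in cultured CORIN+ and 11.49 in cultured CORIN- cells, and of 12.61 in fetal CORIN+ and 12.75 in fetal CORIN- cells. Its log2 folds were 0.29 in culture and -0.14 in the fetus, so the direction was not shared. The log2 signal of Lrrn2 was 10.14 in cultured CORIN+ and 9.67 in cultured CORIN- cells, and 9.72 in fetal CORIN+ and 9.53 in fetal CORIN- cells. It was the only relative with a higher CORIN+ signal in both comparisons, at 1.39-fold in culture and 1.14-fold in the fetus, well short of Lrtm1. Lrrn3 had log2 signals of 8.62 and 9.08 in CORIN+ and CORIN- cells from culture, and 10.06 and 10.35 in those from the fetus. It went with the LRRTM genes, at 1.37-fold lower and 1.22-fold lower.
Lingo1 had log2 signals of 7.86 in cultured CORIN+, 7.94 in cultured CORIN-, 8.52 in fetal CORIN+ and 9.46 in fetal CORIN- cells. It had the lowest fetal fold of the set, at 1.91-fold lower, with 0.769% of all clusters below it, and a log2 fold of -0.08 in culture.

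**Figure D2:**
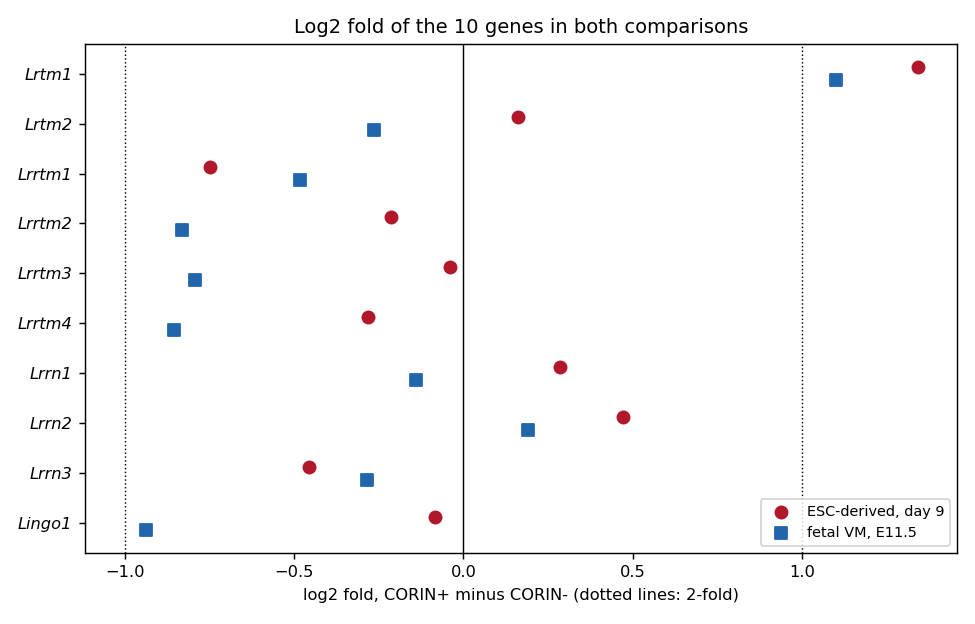
Log2 fold (horizontal axis, CORIN+ minus CORIN-) of each gene in the ESC-derived cells (red circles) and the fetal VM (blue squares), 1 array per population, with dotted lines at 2-fold. Lrtm1 lies past 2-fold to the right in both (1.34 and 1.10), and Lingo1 and 3 LRRTM genes lie to the left in the fetus, from -0.94 to -0.79.

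Counted over the set, 1 of 10 members was at least 2-fold higher in the ESC-derived pair, where 0.353% of all clusters were, and none was at least 2-fold lower, where 0.468% of all clusters were. In the fetal pair 1 of 10 was at least 2-fold higher, beside 2.67% of all clusters, and none was at least 2-fold lower, beside 0.672%. In both pairs the 1 member was Lrtm1, which had been selected on this difference. At 1.5-fold, 1 member was lower in the ESC-derived pair (Lrrtm1; 1.98% of all clusters) and 4 were lower in the fetal pair (Lingo1, Lrrtm4, Lrrtm2 and Lrrtm3; 2.59% of all clusters). A lower CORIN+ signal of any size was seen for 6 of 10 members in culture, where 49.2% of all clusters had one, and for 8 of 10 in the fetus, where 59.7% had one. The same 6 members were lower in both comparisons (30.8% of all clusters), and Lrtm1 and Lrrn2 were higher in both (21.8%). Over the 9 relatives the median log2 fold was -0.08 in culture and -0.48 in the fetus, beside medians of 0.0024 and -0.037 over all clusters.

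Marker genes of cell types moved in the same arrays. All 12 neuronal markers, among them Tubb3, Dcx and Stmn2, had a lower CORIN+ signal in both comparisons (30.8% of all clusters). The median log2 fold of these markers was -0.62 in culture and -0.52 in the fetus. Their mean log2 signal was 9.82 in cultured CORIN+ and 10.44 in cultured CORIN- cells, and 11.35 in fetal CORIN+ and 11.91 in fetal CORIN- cells. This is the order in which the LRRTM genes, Lrrn3 and Lingo1 stood, and the part of neurons in their values was not tested. Of 10 floor plate markers, 9 had a higher CORIN+ signal in culture (50.7% of all clusters) and all 10 in the fetus (40.3%). The median log2 folds of these markers were 0.50 and 0.72. Corin, whose product was sorted on, is among them, with log2 folds of 1.96 and 4.15. Of the floor plate markers, 7 had both ESC-derived arrays above both fetal arrays, beside 30.3% of all clusters, an order that Lrtm1 missed because 10.63 in cultured CORIN- cells lies below 10.75 in fetal CORIN+ cells. The part of floor plate cells in the values of Lrtm1 was not tested. The 10 neural progenitor markers were mixed, with median log2 folds of 0.32 in culture and 0.04 in the fetus. A higher CORIN+ signal was seen for 7 of them in culture (50.7% of all clusters) and 6 in the fetus (40.3%).
In the fetal pair, markers of cells from outside the neural tube were also higher in CORIN+ cells. All 10 macrophage markers were higher there (median log2 fold 3.89), as were all 10 mesenchyme markers (2.11). So were 4 of 5 erythroid markers (1.36), and all 6 endothelial markers had a higher signal (0.75). Of all clusters, 40.3% had a higher CORIN+ signal in the fetal pair. In culture the macrophage markers had a median log2 fold of -0.02, the mesenchyme markers -0.90, the endothelial markers -0.66 and the pluripotency markers -2.10. Lrtm1 was higher in fetal CORIN+ cells too. The part of macrophage, mesenchyme, erythroid and endothelial cells in the fetal values of Lrtm1 and its relatives was not tested. Nor was the part of mesenchyme, endothelial and pluripotent cells in their culture values.

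Between culture and fetus the relatives separated further. Both ESC-derived arrays lay below both fetal arrays for 7 of 10 members, beside 29.2% of all clusters, and the 7 were the 4 LRRTM genes, Lrrn1, Lrrn3 and Lingo1. Among CORIN+ cells, 5 of 10 members were at least 2-fold lower in culture than in the fetus, beside 3.86% of all clusters. Lrrtm2 differed most, at 2.98-fold lower, followed by Lrrtm1 (2.73-fold), Lrrn3 (2.72-fold), Lrrtm3 (2.07-fold) and Lrrtm4 (2.06-fold). Among CORIN- cells, 7 of 10 were at least 2-fold lower in culture, beside 3.53%, from 2.27-fold for Lrrtm1 to 4.56-fold for Lrrtm2. Lrtm1 went the other way, with a signal 2.34-fold higher in culture among CORIN+ cells, where 2.7% of all clusters were at least 2-fold higher, and 1.98-fold higher among CORIN- cells. All 12 neuronal markers were also lower in both ESC-derived arrays than in both fetal arrays, with medians of -1.49 among CORIN+ and -1.53 among CORIN- cells. Strain, culture, the LMX1A gate and age all differ between these arrays and cannot be told apart.

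The wider family of extracellular LRR proteins held no second gene at least 2-fold higher in CORIN+ cells of both systems, beside 0.0624% of all clusters. At so low a share, none among the listed genes is near that of all clusters. Of 70 further genes listed, 68 were measured, and their median log2 fold was -0.07 in culture and -0.13 in the fetus. In culture none of the 68 was at least 2-fold higher, beside 0.353% of all clusters, and 2 were at least 2-fold lower, beside 0.468%. These were Islr2, which takes part in axon growth (2.28-fold lower), and Ntrk3, the receptor of neurotrophin-3 (2.02-fold lower). Slitrk6 came next, at 1.67-fold lower in culture, and was 1.64-fold higher in the fetus. Those highest in culture were Slit1, a secreted axon repellent (1.81-fold), Lgi1, a secreted synaptic protein (1.57-fold), and Lrrc32, which holds latent TGF-beta at the cell surface (1.57-fold). At 1.5-fold, 4 of the 68 were higher in culture, namely these and Slit3 (1.52-fold), beside 1.34% of all clusters. Another 5 were lower, beside 1.98%. The 4 were higher in the fetus too: Slit1 1.79-fold, Lgi1 2.86-fold, Lrrc32 1.62-fold and Slit3 1.98-fold. At 1.5-fold, 12 of the 68 were higher in the fetus, beside 4.97% of all clusters, and 6 were lower, beside 2.59%.
In the fetal pair 5 of the 68 were at least 2-fold higher, beside 2.67% of all clusters, and none was at least 2-fold lower, beside 0.672%. Islr, known from mesenchymal cells, was 4.57-fold higher, the adhesion molecule Flrt2 3.05-fold, Lgi1 2.86-fold, Tril, an accessory protein of Toll-like receptor signalling, 2.79-fold, and Slit2, a floor plate axon repellent, 2.77-fold. Islr and Flrt2 had log2 folds of 0.39 and -0.29 in culture. The lowest fetal folds were those of Slitrk1 (a log2 fold of -0.999, just short of 2-fold), Islr2 (1.93-fold) and Omg (1.93-fold).

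**Figure D3:**
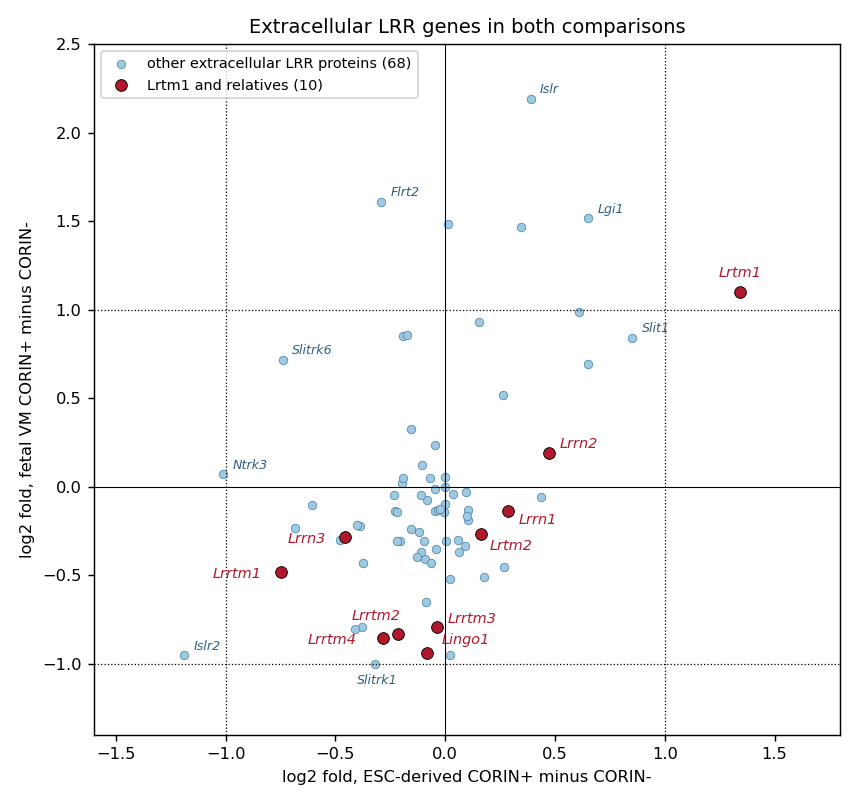
Log2 fold, CORIN+ minus CORIN-, for culture (horizontal axis) against the fetus (vertical axis) for the 10 genes (red) and 68 other extracellular LRR genes (blue), 1 array per population, dotted lines at 2-fold. Lrtm1 stands alone past the 2-fold lines of both comparisons at the upper right, with Slit1 (0.85 and 0.84) the nearest of the others.

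Among the partners of these proteins, the neurexin genes went with the LRRTM genes. Of 11 measured partners of LRRTM proteins and of LINGO1, none was 2-fold apart in culture. In the fetus 2 were at least 2-fold lower, beside 0.672% of all clusters, and both encode neurexins, which bind LRRTM proteins across the synapse. Nrxn3 was 2.80-fold lower, with log2 signals of 9.51 in fetal CORIN+ and 10.99 in fetal CORIN- cells, and Nrxn2 was 2.16-fold lower, with 10.03 and 11.14. On the culture arrays Nrxn3 had a log2 signal of 7.70 in cultured CORIN+ and 7.74 in cultured CORIN- cells, and Nrxn2 had 8.67 and 8.85. Both had thus the same order over the populations as their LRRTM ligands. All 12 neuronal markers had that order too, and the part of neurons in it was not tested. Of all clusters, 30.8% were lower in CORIN+ cells of both comparisons, and 29.2% had both ESC-derived arrays below both fetal arrays. The remaining LRRTM partners were the glypican gene Gpc4 (log2 folds of -0.03 in culture and 0.42 in the fetus), the receptor phosphatase gene Ptprs (0.11 and -0.14) and Dlg4, the gene of the scaffold PSD-95 (-0.08 and -0.56).
Of the LINGO1 partners, the Nogo receptor gene Rtn4r had log2 folds of 0.10 in culture and -0.16 in the fetus, and Ngfr, the p75 gene, -0.17 and 0.60. Tnfrsf19, which can take the place of p75, had 0.26 and 0.55, and the Nogo gene Rtn4 had -0.16 and -0.16. The myelin ligands Mag and Omg had -0.04 and 0.02 in culture, and -0.06 and -0.95 in the fetus. Lingo1 and Omg were thus lower in fetal CORIN+ cells by similar amounts, while Ngfr and Tnfrsf19 were higher.

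Of the 10 members, 6 lie within the span of another protein-coding gene in the RefSeq annotation, and 5 of these containing genes were measured. Lrtm1 lies inside Cacna2d3, the gene of an auxiliary subunit of voltage-gated calcium channels, on the opposite strand. Cacna2d3 had log2 signals of 9.44 in cultured CORIN+ and 9.43 in cultured CORIN- cells, and of 8.77 in fetal CORIN+ and 10.18 in fetal CORIN- cells. It was level in culture and 2.67-fold lower in the fetus, where Lrtm1 was 2.14-fold higher. The 2 genes of 1 locus therefore had opposite differences in the fetal VM. Lrtm2 lies in Cacna2d4, a paralogue of that subunit gene, which had log2 folds of 0.07 in culture and -0.11 in the fetus.
Lrrtm1, Lrrtm2 and Lrrtm3 lie in the alpha-catenin genes Ctnna2, Ctnna1 and Ctnna3, whose products link cadherins to actin. Ctnna2, the neural form, was 1.62-fold lower in fetal CORIN+ cells, and, like Lrrtm1, it had both ESC-derived arrays (8.18 in CORIN+ and 8.25 in CORIN- cells) below both fetal arrays (9.84 and 10.53). Ctnna1 had log2 folds of 0.0038 and 0.27, against -0.21 and -0.83 for Lrrtm2 inside it, and Ctnna3 had -0.21 and -0.17. Lrrn3 lies in Immp2l, which was not analysed here.

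**Figure D4:**
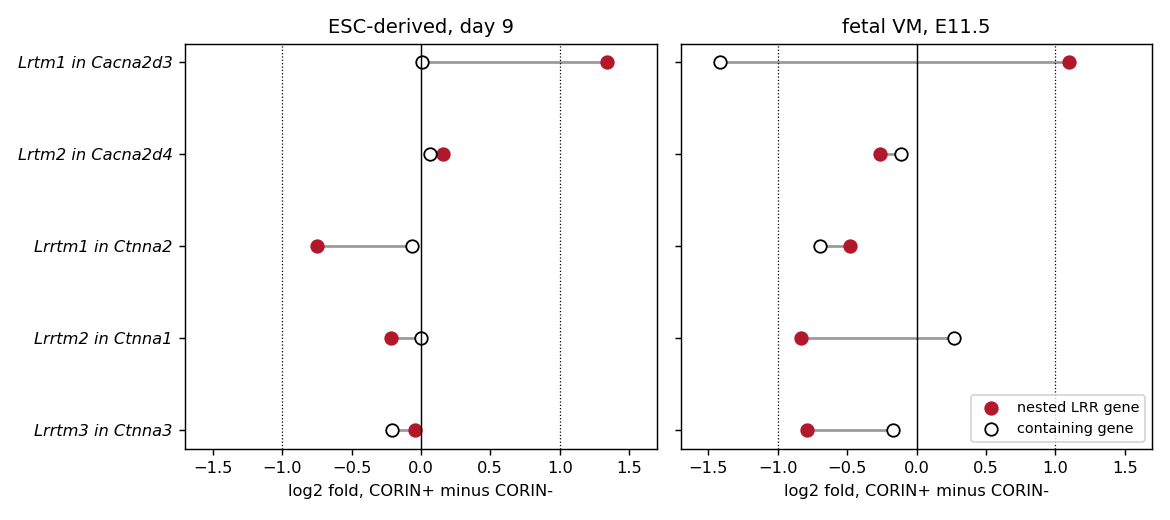
Log2 fold (horizontal axis, CORIN+ minus CORIN-) of 5 nested LRR genes (red) and of the gene whose span contains each (open circles), in the ESC-derived cells (left) and the fetal VM (right), 1 array per population. The pair of Lrtm1 and Cacna2d3 lies farthest apart in the fetus, at 1.10 and -1.42.

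To find which genes behaved most like Lrtm1, each gene was centred on its own mean over the 4 arrays, and the root mean square difference from Lrtm1 was taken. None of the relatives was near. Lrrn2 was the closest of them, with a difference of 0.61 at rank 1341 of 19937 genes, and Lrrtm2 the farthest, with 1.73 at rank 19731. The 10 nearest genes were Prss23 (0.043), Dkk3 (0.079), Tbc1d4 (0.11), Lpl (0.16), Folr1 (0.17), Unc13c (0.18), Slit1 (0.20), St3gal6 (0.20), Agtr1a (0.20) and Ptgs2 (0.20). They include a secreted protease (Prss23), a Dickkopf protein (Dkk3), lipoprotein lipase (Lpl) and a folate receptor (Folr1). Of the 10, 5 were at least 2-fold higher in CORIN+ cells of both systems, beside 0.0624% of all clusters. All 10 were picked for likeness to Lrtm1 on these same arrays, so that count comes with the choice and supports nothing. Prss23 had log2 signals of 10.41 in cultured CORIN+ and 9.14 in cultured CORIN- cells, and of 9.24 in fetal CORIN+ and 8.05 in fetal CORIN- cells. Of the listed LRR genes, 1 was among the 10, namely Slit1, with 12.95 and 12.09 in culture and 11.80 and 10.95 in the fetus. The measure rests on 4 arrays, so many genes can come close to any profile, and it carries no test.

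**Figure D5:**
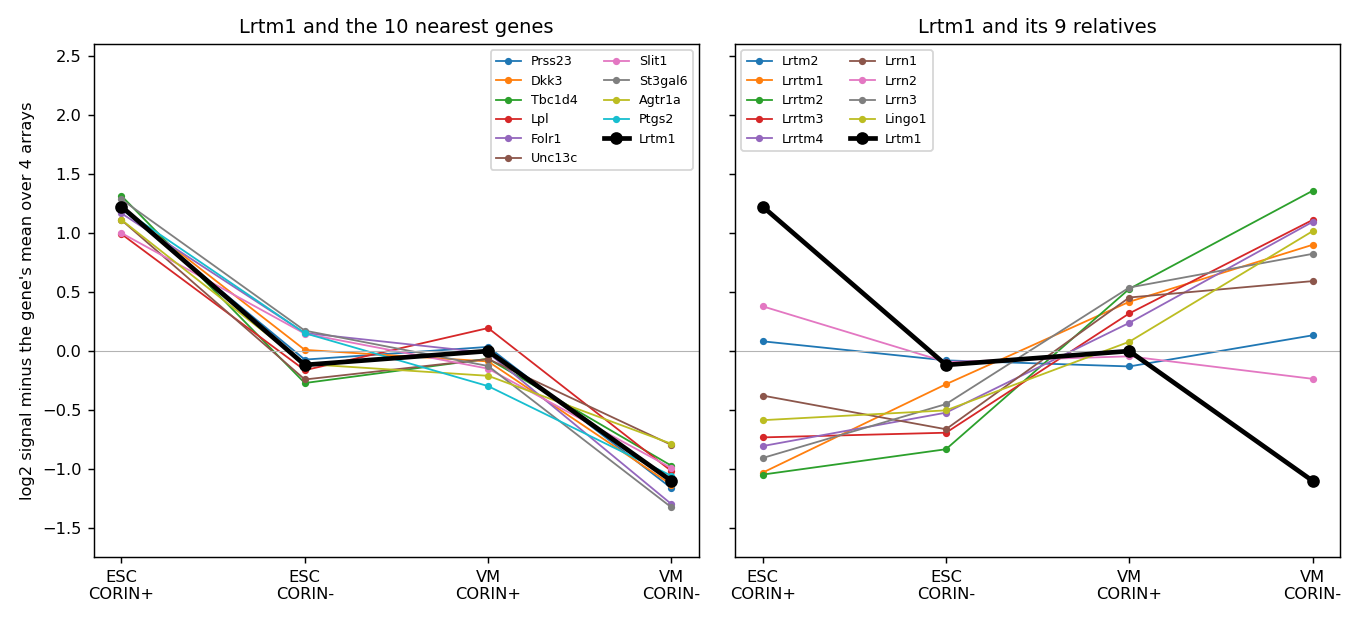
Log2 signal minus the mean of each gene over 4 arrays (vertical axis) in the 4 populations (horizontal axis), for Lrtm1 (black) with the 10 nearest genes (left) and with its 9 relatives (right). The nearest genes follow Lrtm1 within 0.20 on average, whereas 7 relatives have both ESC-derived arrays below both fetal arrays.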

How the data were processed

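Total RNA of the 4 sorted populations was amplified with an Ambion whole-transcript kit and read on Affymetrix arrays. The authors analysed the data in GeneSpring and deposited 1 log2 signal for each of 28856 transcript clusters and each array. How probes were summarized and arrays normalized is not given in the sources used here, nor is the build. Log2 folds were taken as CORIN+ minus CORIN-. Any background left in the signal makes folds of dim clusters smaller, and the number of arrays limits the precision. Array annotation paired 21789 clusters with 1 symbol, of which 21698 were updated through the gene identifier (GRCm38.p6 names). Where a gene has several clusters, the one with the highest mean signal was used. The members and gene lists were chosen with earlier results of these data known. Named were all members, containing genes and partners, Corin, the 10 genes nearest to Lrtm1, and LRR genes past 2-fold or among the 3 highest or lowest of a comparison; other genes, the motifs, and the comparisons of culture with fetus were chosen after values were seen. Alternatives were quantile normalization, median centring, 32 added to the linear signal, the mean over clusters, a filter at the 20th percentile, and thresholds of 1.5-fold and 3-fold. Counting and likeness were tested on simulated arrays. Python 3.11.15, numpy 2.4.6, pandas 2.3.3 and matplotlib 3.10.9 were used.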

Additional observations from a re-analysis of the deposited data

Results flagged for a closer look

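Opposite directions in the 2 comparisons, each past the scaled median absolute deviation of all log2 folds (0.146 for culture, 0.162 for the fetal VM), were seen for 4 of the named genes. The difference between the comparisons was not tested, since each population has 1 array. Lrtm2 had log2 folds of 0.16 in culture and -0.26 in the fetus, a difference of 0.425. Flrt2 had -0.29 and 1.61, a difference of -1.90. Slitrk6 had -0.74 and 0.72, a difference of -1.46, and its log2 signal was 9.58 in cultured CORIN+ and 10.31 in cultured CORIN- cells, and 7.33 in fetal CORIN+ and 6.61 in fetal CORIN- cells. Ngfr had -0.17 and 0.60, a difference of -0.775.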

How the results depend on the processing

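Of 80 values of single members under the alternatives, all 80 kept their sign and stayed within the scaled median absolute deviation of the comparison, with a largest shift of 0.11. Those under the mean over clusters or under centring could not have left that limit. Centring only subtracts the median of all clusters (0.0024 in culture and -0.037 in the fetus). The log2 fold of Lrtm1 lay between 1.32 and 1.36 in culture and between 1.07 and 1.14 in the fetus. The number of members at least 2-fold lower in the fetus was 1 after quantile normalization, where Lingo1 reached a log2 fold of -1.01. With a threshold of 1.5-fold, 1 member was lower in culture and 4 were lower in the fetus, and with 3-fold, 0 were higher in culture and 0 in the fetus. Of the 10 genes nearest to Lrtm1, 8 were among the nearest 10 after quantile normalization, 9 with 32 added and 10 after centring. Using the mean over clusters changed nothing for the members, which have 1 cluster each, and all 10 passed the filter on dim clusters in both comparisons. No paired analysis was possible because each population has 1 array. No measure of signal over background was used here, so a small fold can also be one held down by background, and with 1 array per population the spread between samples is unknown.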
